A study of Mus musculus with 267 samples.

Results

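The genes described here were the murine Fc gamma receptors Fcgr1, Fcgr2b, Fcgr3 and Fcgr4, together with Fcer1g, the signalling subunit of the activating ones. Every tag-count region and every transcription factor peak centred within 50 kb of the start of 1 of these 5 genes (mm10, GENCODE vM21) was taken, and each was assigned to the nearest of the 5 starts. No measured value entered this choice among the deposited regions and peaks, though the 5 genes were chosen with earlier results of these data known. The deposited regions are themselves sites that the authors called as open chromatin in these cells. The 5 strain tables held 277 such regions of 305626 in all. Of these, 57 were assigned to Fcgr1, 67 to Fcgr2b, 46 to Fcgr3, 22 to Fcgr4 and 85 to Fcer1g. By strain, there were 62 of 67742 in C57BL/6J (C57), 58 of 54022 in BALB/cJ (BALB), 62 of 68932 in NOD/ShiLtJ (NOD), 55 of 60175 in PWK/PhJ (PWK) and 40 of 54755 in SPRET/EiJ (SPRET). A region was present in all 5 strain tables at 29462 positions (centres within 500 bp), of which 34 belonged to the 5 genes: 8 of Fcgr1, 6 of Fcgr2b, 7 of Fcgr3, 2 of Fcgr4 and 11 of Fcer1g. All 34 were tested, with no filter on low values. The C57 time-course table held 71 member regions of 77955, the table of EGR2 sites 32 of 30675 and the tables of the Egr2 genotypes 4 of 4677.

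Bone marrow-derived macrophages (BMDMs) were grown with M-CSF from female young adult mice of the 5 inbred strains and left untreated (basal) or given interleukin-4 (IL-4) for 24 hours, and C57 BMDMs also for 1 and 6 hours. BMDMs of Egr2 fl/fl mice, in which the Egr2 alleles carry loxP sites, and of LyzM-Cre Egr2 fl/fl mice, in which the lysozyme M promoter drives Cre in myeloid cells, were studied basally and after 24 hours of IL-4; both genotypes carry the floxed alleles and only the second carries Cre. Chromatin immunoprecipitation followed by sequencing (ChIP-seq) measured acetylation of histone H3 at lysine 27 (H3K27ac), a mark of active promoters and enhancers, H3K4me2 and H3K4me3, RNA polymerase II (Pol II), and the transcription factors PU.1, C/EBPb (CEBPb), STAT6, PPARg and EGR2. Values are tags in a region per 1e7 tags of the library, written below as tags. Each histone mark had 2 libraries in each group. Pol II had 2 to 4 in each strain basally and after 24 hours, 2 in C57 at 6 hours, and 1 in C57 at 1 hour and in each condition of the Egr2 genotypes. Library depth was 5.83e6 to 2.91e7 tags for H3K27ac, 4.69e6 to 2.2e7 for Pol II, 9.31e6 to 2.28e7 for H3K4me2, 1.03e7 to 2.05e7 for H3K4me3, and 5.73e6 to 2.23e7 for the factors that were counted.

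Fc gamma receptors bind the constant part of IgG and let macrophages take up antibody-coated particles and respond to immune complexes. Fcgr1 encodes the high-affinity receptor CD64, and Fcgr3 and Fcgr4 encode activating receptors of lower or intermediate affinity; all of these signal through the common gamma chain encoded by Fcer1g, which carries an activating ITAM motif. Fcgr2b encodes the inhibitory receptor, which carries an ITIM motif in its own tail and recruits the phosphatase SHIP-1. IL-4 signals through STAT6 and drives the alternative activation of macrophages, in which PPARg and EGR2 are among the induced transcription factors.

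The start of Fcgr1 (ENSMUSG00000015947) lies at position 96293969 of chromosome 3 on the minus strand. The other members lie on chromosome 1, with the start of Fcgr2b (ENSMUSG00000026656) at 170976547, of Fcgr3 (ENSMUSG00000059498) at 171064935 and of Fcer1g (ENSMUSG00000058715) at 171234365 on the minus strand, and of Fcgr4 (ENSMUSG00000059089) at 171018920 on the plus strand. Distances below are from these starts in the direction of transcription, so that negative distances are upstream. Fcgr2b, Fcgr3 and Fcgr4 are related in sequence, and how reads that fit more than 1 of them were placed is not given in the sources used here; values at their copies are uncertain to that extent. The annotated start of Fcgr3 is that of a longer transcript, and the region there was assigned by the authors to the start of NR_106103, whereas the RefSeq start of Fcgr3 (NM_010188) lies in the region at +5.4 kb.

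The promoter of Fcgr1 is shown because this region had the largest fall of the 34, and 3 sites of Fcgr2b because H3K27ac rose around them and EGR2 peaks were called there after IL-4. All are 250 bases read 5′ to 3′ in the direction of the gene from GRCm38.p6 (mm10), the promoter from the RefSeq promoter table. Capitals mark letters that match a searched motif on either strand: GAGGAAG for PU.1 (CTTCCTC on the other strand) or, for STAT6, TTC and GAA with 4 bases between them. The 3 Fcgr2b sites lie at +3.40 kb, in intron 1, at -10.6 kb, upstream of the gene, and at 13.9 kb downstream of the start, within the gene. A further Fcgr2b site, at +8.8 kb, fits the same reason, with EGR2 peaks in 5 strains after IL-4, and is not shown.
Fcgr1 promoter, chr3:96293970-96294219, minus strand: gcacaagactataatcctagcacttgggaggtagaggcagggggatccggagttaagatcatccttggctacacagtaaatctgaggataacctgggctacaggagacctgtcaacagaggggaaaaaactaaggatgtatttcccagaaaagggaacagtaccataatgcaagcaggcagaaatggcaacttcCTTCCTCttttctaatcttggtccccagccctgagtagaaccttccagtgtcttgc
Fcgr2b site at +3.40 kb, chr1:170973026-170973275, minus strand: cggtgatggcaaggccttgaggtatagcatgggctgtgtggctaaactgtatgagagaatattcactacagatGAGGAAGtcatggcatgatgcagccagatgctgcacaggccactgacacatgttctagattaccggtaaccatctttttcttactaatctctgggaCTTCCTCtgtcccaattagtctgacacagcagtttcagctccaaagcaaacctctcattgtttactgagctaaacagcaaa
Fcgr2b site at -10.6 kb, chr1:170986994-170987243, minus strand: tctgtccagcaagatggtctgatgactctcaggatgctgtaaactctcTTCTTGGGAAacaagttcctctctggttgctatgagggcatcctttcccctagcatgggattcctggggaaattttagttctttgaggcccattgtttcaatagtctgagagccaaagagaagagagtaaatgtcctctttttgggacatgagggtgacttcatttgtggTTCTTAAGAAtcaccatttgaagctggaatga
Fcgr2b site at +13.9 kb, chr1:170962525-170962774, minus strand: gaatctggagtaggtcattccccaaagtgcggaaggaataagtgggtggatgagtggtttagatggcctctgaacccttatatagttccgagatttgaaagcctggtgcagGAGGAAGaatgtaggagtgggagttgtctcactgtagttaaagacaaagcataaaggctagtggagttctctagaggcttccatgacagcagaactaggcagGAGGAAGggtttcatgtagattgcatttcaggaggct

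The Fcgr1 promoter held 1 PU.1 match, which spans bases 195 to 201. The +3.40 kb site of Fcgr2b held 2 PU.1 matches, at bases 74 to 80 and 170 to 176, and the +13.9 kb site held 2, at bases 112 to 118 and 214 to 220. The -10.6 kb site held 2 STAT6 matches, at bases 49 to 58 and 219 to 228. The PU.1 letters occur in 10.6% of 32851 RefSeq promoter windows of 250 bases and in 23.7% of 30662 EGR2-site windows of that length. The STAT6 letters occur in 5.85% and 7.95% of the same windows. Over the 32 EGR2-site windows of the 5 genes, PU.1 letters were found in 6, STAT6 letters in 7 and C/EBP letters (TTGCNNAA) in 8, the last of which occur in 15.3% of all EGR2-site windows. The EGR letters GCGTGGG were found in 2 of the 32 windows, 1 of Fcer1g and 1 of Fcgr3, and in 9.79% of all EGR2-site windows. The AP-1 letters TGANTCA were found in 1 window, of Fcgr3, and in 17.2% of all. The PPAR letters, 2 copies of AGGTCA with 1 base between them, were found in none of the 32 and in 0.0261% of all. These are matches of letters only.

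The first comparison asked how IL-4 changed the receptor loci over the 5 strains, by limma on log2(tags + 1) with strain as a term and Benjamini-Hochberg adjusted p-values over all 29462 matched regions. Fcgr2b, the inhibitory receptor, moved in the opposite direction to Fcgr1, Fcgr4 and Fcer1g. H3K27ac rose at 3 of the 6 Fcgr2b regions and fell at none. It fell at 6 of 8 Fcgr1 regions, both Fcgr4 regions and 8 of 11 Fcer1g regions, with no rise. Of these falls, 4 assigned to Fcgr1 and 6 assigned to Fcer1g were in regions nearest another gene. The 2 regions nearest Fcgr1 and the 2 nearest Fcer1g all fell. At Fcgr3, 1 of 7 regions fell, and that region lies nearest Cfap126 rather than Fcgr3. In all, 3 of 34 regions rose and 17 fell (58.8%), where 40.6% of all regions were called, 8.01% as higher and 32.6% as lower. The median log2 difference was -0.57 over the 34 and -0.31 over all regions, so H3K27ac was lower after IL-4 over the whole table. After scaling each library by the median ratio of its regions, 6 of the 34 rose, 10 fell and the median was -0.23, while 31.5% of all regions were called, 15.9% as higher and 15.5% as lower. On reads recovered from the scaled values edgeR called 16 of the 34 and 32.1% of all regions. In the same comparison Pol II, whose median over all regions was 0.01, rose at 4 of 34 regions, all of Fcgr2b, and fell at 9 (38.2%), where 16.2% of all were called, 7.77% as higher and 8.46% as lower.

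**Figure D1:**
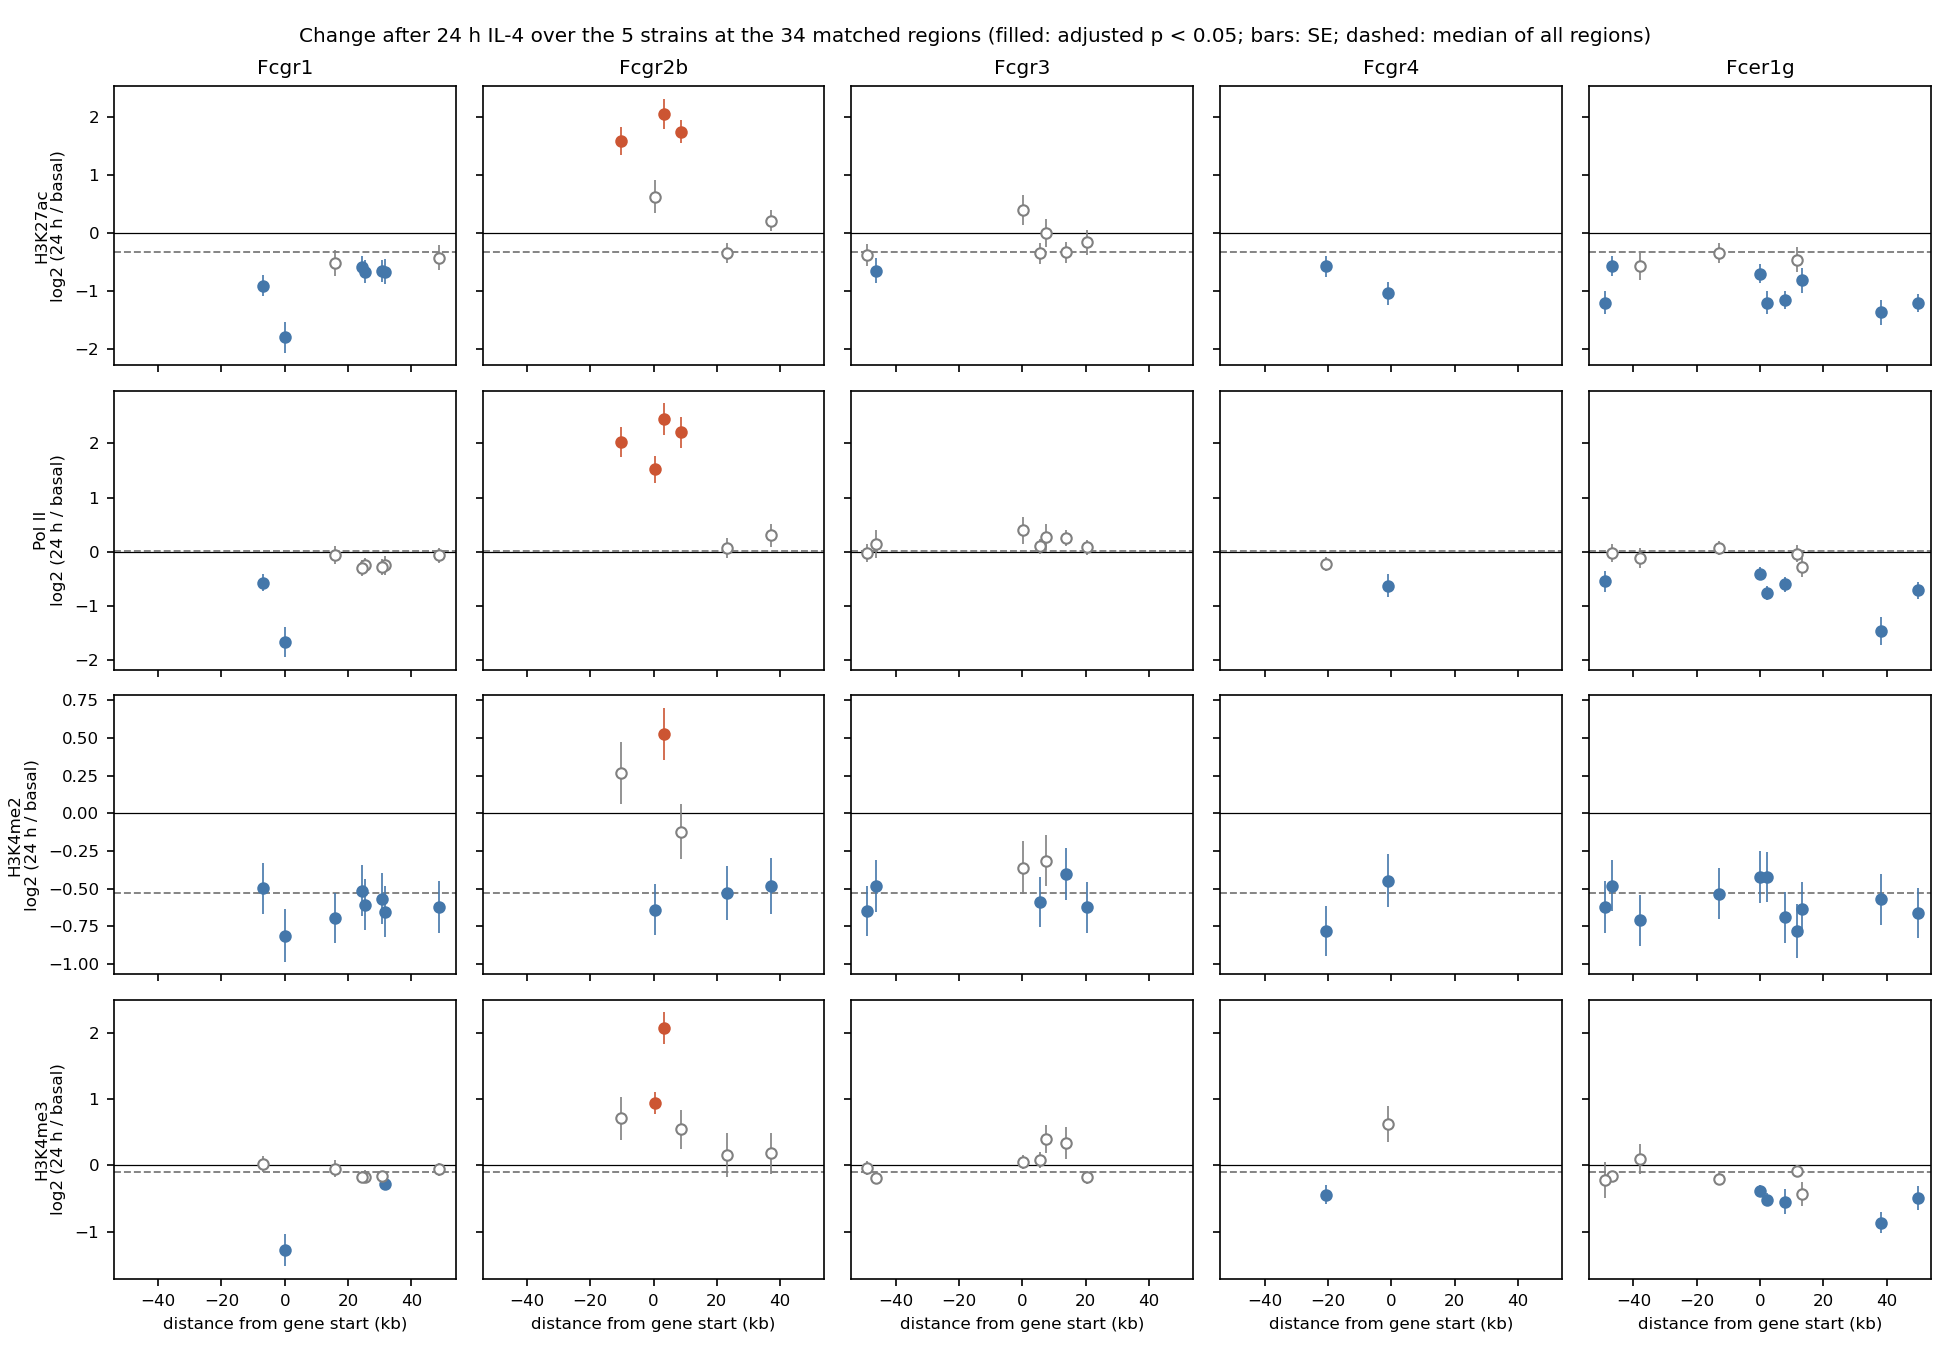
Log2 difference between 24 hours of IL-4 and basal BMDMs over the 5 strains (vertical axis, log2 of tags + 1) against the distance of each of the 34 matched regions from the gene start in kb (horizontal axis), with 1 column for each gene and 1 row for each mark. Bars are standard errors and filled points passed an adjusted p of 0.05 (limma); dashed lines are the medians of all regions. The Fcgr2b regions at +3.4, +8.8 and -10.4 kb sit above 1.5 in H3K27ac, whereas the start of Fcgr1 sits at -1.79.

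Of the inhibitory receptor, the region with the largest rise in all 4 marks lay at +3.4 kb (chr1:170972694-170973694), in intron 1 of Fcgr2b. H3K27ac there was 31.2 and 21.4 tags in the 2 basal C57 libraries and 205 and 68.3 in the 2 IL-4 libraries. The BALB libraries held 27.9 and 26.2 against 190 and 71.5, and in NOD 20.0 and 13.5 against 107 and 45.6. In PWK it was 18.9 and 16.4 against 136 and 68.7, and in SPRET 17.1 and 4.61 against 43.2 and 21.5. Every IL-4 library was above every basal library in each of the 5 strains, with SPRET the lowest after IL-4. The difference was 2.06 (SE 0.26, adjusted p = 1.87e-06 by limma), and 2.38 after scaling.

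Pol II at the same Fcgr2b region was 54.3, 32.1, 9.65 and 28.4 tags in the 4 basal C57 libraries and 269, 318 and 51.3 in the 3 IL-4 libraries, so that 1 library of each condition overlapped. Pol II in BALB was 23, 19 and 24.1 against 132 and 126, in NOD 13.6 and 4.79 against 110 and 35.1, and in PWK 20.5, 7.69 and 22.7 against 160, 72.2 and 161. In SPRET it was 14.5, 2.28 and 8.21 against 43.1, 18.4 and 12.9, and there too the groups overlapped. The groups were apart in 3 of 5 strains. Pol II differed by 2.45 (SE 0.29, adjusted p = 9.84e-08 by limma), H3K4me3 by 2.08 (SE 0.24, adjusted p = 1.92e-07) and H3K4me2 by 0.53 (SE 0.17, adjusted p = 0.00491). H3K4me3, a mark of active starts, was 13.1 and 11.7 tags basally and 117 and 99.9 after IL-4 in C57, but 5.94 and 2.12 against 9.68 and 5.82 in SPRET, where the groups overlapped.

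A second Fcgr2b region at +8.8 kb, also inside the gene, held 48.2 and 45.6 tags of H3K27ac in basal C57 BMDMs and 199 and 143 after IL-4. In BALB the values were 52.2 and 67.9 against 258 and 132, in NOD 28.3 and 66.7 against 198 and 120, and in PWK 25.8 and 61.9 against 168 and 137. SPRET BMDMs reached a level like the others here, with 56.4 and 74.4 against 234 and 168. The groups did not overlap in any strain in H3K27ac or in Pol II. H3K27ac differed by 1.75 (SE 0.20, adjusted p = 3.82e-07) and Pol II by 2.2 (SE 0.29, adjusted p = 5.33e-07) in limma.

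Upstream of Fcgr2b, the region at -10.4 kb held 40.0 and 22.1 tags of H3K27ac basally and 125 and 91.2 after IL-4 in C57. In BALB the values were 24.3 and 19.7 against 142 and 42.4, in NOD 29.1 and 13.5 against 92.6 and 38.8, in PWK 20.6 and 21.9 against 95.0 and 45.8, and in SPRET 12.8 and 9.88 against 34.4 and 21.5. Every IL-4 library was again above the basal libraries of its strain. H3K27ac differed by 1.59 (SE 0.24, adjusted p = 1.37e-05) and Pol II by 2.02 (SE 0.28, adjusted p = 1.37e-06) in limma, whereas H3K4me2 differed by 0.27 (SE 0.21, adjusted p = 0.226). These 3 Fcgr2b regions were the ones of the 34 in which H3K27ac of all IL-4 libraries exceeded that of all basal libraries in every strain, which held for 2.2% of all regions.

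At the start of Fcgr2b (the region at +0.5 kb), Pol II and H3K4me3 rose while the H3K27ac difference did not pass the test. H3K27ac was 229 and 106 tags basally and 351 and 140 after IL-4 in C57. For BALB the values were 206 and 151 against 420 and 149, in NOD 127 and 60.3 against 294 and 61.9, in PWK 79.0 and 98.7 against 319 and 105, and in SPRET 100.02 and 49.4 against 143 and 68.9. In each strain but PWK 1 IL-4 library was below the higher basal one, and in all 5 the library numbered 1 was the higher after IL-4. The difference was 0.63 (SE 0.29, adjusted p = 0.0794 by limma). A fit with a replicate block gave an adjusted p of 0.00103, and after scaling the difference was 0.97 with an adjusted p of 0.00417.

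Pol II at the Fcgr2b start was 216, 140, 37 and 51.6 tags in basal C57 libraries and 317, 387 and 118 after IL-4. It was 121, 62.9 and 50.3 against 307 and 217 in BALB, 44.1 and 16.4 against 160 and 60.1 in NOD, 27.5, 35 and 65.9 against 186, 105 and 192 in PWK, and 44.5, 22.1 and 32.9 against 78.6, 37.5 and 52.6 in SPRET. The groups were apart in BALB, NOD and PWK and overlapped in C57 and SPRET. Pol II differed by 1.52 (SE 0.25, adjusted p = 2.39e-05) and H3K4me3 by 0.95 (SE 0.17, adjusted p = 0.000175) in limma. H3K4me2 fell by 0.64 (SE 0.17), but by 0.12 with an adjusted p of 0.511 after scaling. The remaining Fcgr2b regions did not pass the test in H3K27ac: the difference was -0.34 at +23.1 kb and 0.22 at +37.1 kb, the latter nearest Fcrla.

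**Figure D2:**
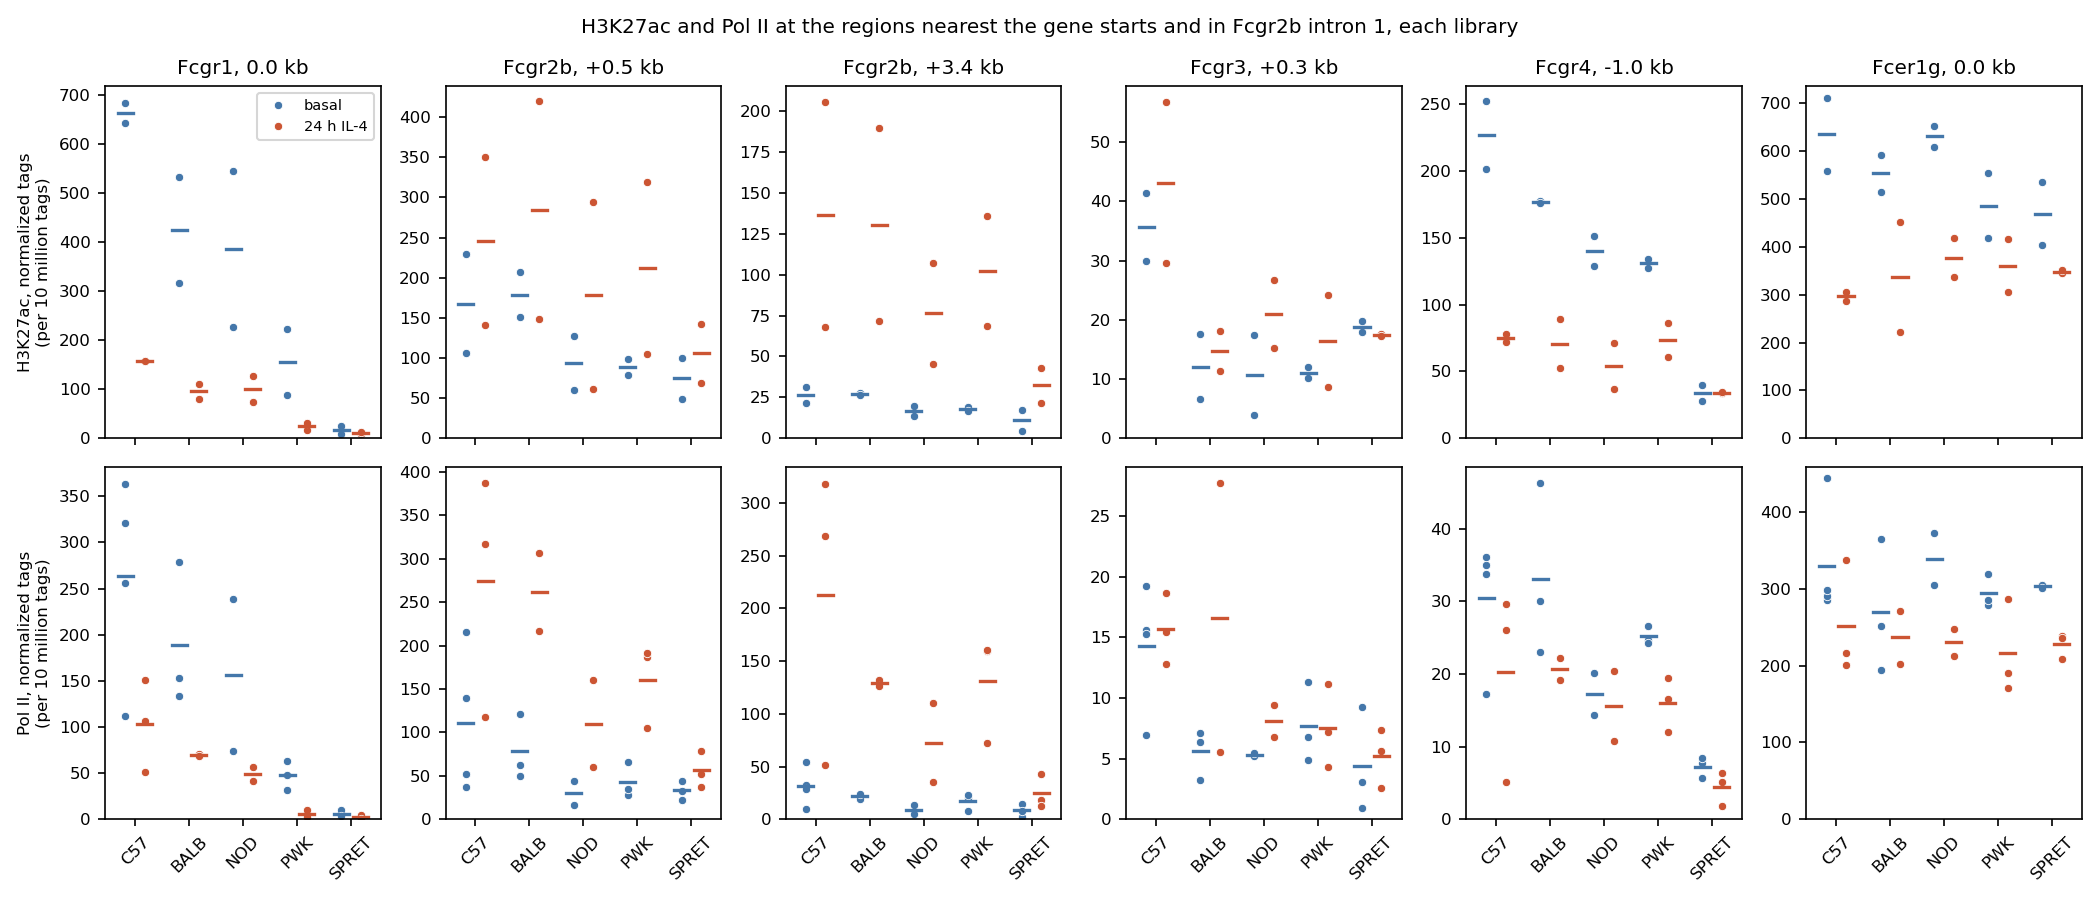
Tags per 1e7 tags in each library at the start region of each of the 5 genes and at the Fcgr2b region at +3.4 kb, for H3K27ac (upper row) and Pol II (lower row), on axes that start at 0. Each point is 1 library, basal (blue) or 24 hours of IL-4 (orange), grouped by strain on the horizontal axis, and horizontal lines are means. IL-4 libraries lie below the basal ones at the Fcgr1 start in 4 of 5 strains for H3K27ac and above them at the +3.4 kb region of Fcgr2b in all 5.

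Among the activating receptors, Fcgr1 changed most. At its start (chr3:96293471-96294471) H3K27ac was 685 and 643 tags in basal C57 libraries and 157 and 158 after IL-4. BALB libraries had 317 and 533 against 79.8 and 111, in NOD 226 and 545 against 73.8 and 127, and in PWK 87.6 and 224 against 17.5 and 31.5. In SPRET it was 8.55 and 24.4 against 8.82 and 12.9. The groups were apart in every strain except SPRET, in which the basal level was already low. H3K27ac fell by 1.79 (SE 0.26, adjusted p = 1.14e-05 by limma), and by 1.46 after scaling.

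Pol II at the Fcgr1 start was 112, 364, 321 and 256 tags in basal C57 BMDMs and 106, 151 and 51.3 after IL-4. The BALB values were 134, 279 and 153 against 70.3 and 68.2, in NOD 74.0 and 239 against 41.8 and 56.7, and in PWK 31.7, 63.0 and 47.7 against 5.03, 2.15 and 10.3. In SPRET it was 2.90, 9.90 and 3.08 against 1.69, 4.95 and 0.0. The groups were apart in BALB, NOD and PWK. Pol II fell by 1.67 (SE 0.27, adjusted p = 2.81e-05) and H3K4me3 by 1.28 (SE 0.25, adjusted p = 0.000563) in limma. H3K4me2 fell by 0.81 (SE 0.17, adjusted p = 0.000109), and by 0.30 with an adjusted p of 0.119 after scaling.

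Upstream of Fcgr1 at -6.9 kb, H3K27ac was 961 and 713 tags basally and 449 and 317 after IL-4 in C57, and 53.0 and 122 against 50.3 and 63.5 in SPRET, in which the groups overlapped. H3K27ac there fell by 0.90 (SE 0.18, adjusted p = 0.000277 by limma) and Pol II by 0.57 (SE 0.15, adjusted p = 0.00645), while H3K4me3 differed by 0.03 (SE 0.12, adjusted p = 0.894). The other 6 Fcgr1 regions lie nearest histone genes of the Hist2h cluster. In 4 of them H3K27ac fell, by 0.57 to 0.66, and in 1 of them after scaling. In level, H3K27ac at the Fcgr1 start was highest in C57 and lowest in SPRET in both conditions. Because each strain's table has its own set of regions and reads were aligned to strain genomes, these levels are set side by side without a test between strains.

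At Fcgr4, the matched region nearest the start lay at -1.0 kb, just outside the window of 1 kb used for starts. H3K27ac was 252 and 202 tags basally and 72.2 and 78.1 after IL-4 in C57. In BALB the tags were 178 and 176 against 88.9 and 52.4, in NOD 151 and 129 against 71.6 and 37.2, in PWK 134 and 128 against 86.2 and 61.1, and in SPRET 28.2 and 39.5 against 33.5 and 34.5. The groups were apart in 4 strains and overlapped in SPRET. The region fell by 1.03 in H3K27ac (SE 0.20, adjusted p = 0.00023) and by 0.63 in Pol II (SE 0.21, adjusted p = 0.0369) in limma. The second Fcgr4 region, at -20.5 kb, fell by 0.57 in H3K27ac (SE 0.18, adjusted p = 0.0123), and by 0.23 with an adjusted p of 0.094 after scaling.

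Fcgr3, the low-affinity activating receptor, did not pass the test in H3K27ac or Pol II at any of the 5 regions nearest to it. At +5.4 kb, which holds its RefSeq start, H3K27ac was 210 and 484 tags basally and 181 and 292 after IL-4 in C57. In BALB it was 483 and 620 against 486 and 255, in NOD 333 and 502 against 341 and 351, and in PWK 300.4 and 477 against 354 and 280. SPRET had 563 and 620 against 556 and 524. The groups overlapped in 4 of 5 strains. H3K27ac differed by -0.35 (SE 0.18, adjusted p = 0.12 by limma, 0.0415 with the replicate block) and by -0.01 after scaling, and Pol II by 0.10 (SE 0.14, adjusted p = 0.732). At +0.3 kb, the annotated start, H3K27ac differed by 0.40 (SE 0.26, adjusted p = 0.226), and by 0.72 with an adjusted p of 0.0249 after scaling; H3K4me3 there differed by 0.05 (SE 0.11, adjusted p = 0.746).

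Fcer1g, the common gamma chain, fell more gently. At its start H3K27ac was 712 and 558 tags basally and 288 and 305 after IL-4 in C57. BALB had 592 and 515 against 453 and 223, in NOD 608 and 653 against 419 and 337, in PWK 419 and 554 against 416 and 306, and in SPRET 404 and 535 against 346 and 351. Each IL-4 library was below the basal libraries of its strain, narrowly so in PWK. H3K27ac fell by 0.69 (SE 0.16, adjusted p = 0.0012), by 0.36 after scaling, Pol II fell by 0.40 (SE 0.12, adjusted p = 0.0176) and H3K4me3 fell by 0.38 (SE 0.08, adjusted p = 0.002) in limma. H3K4me2 at the Fcer1g start fell by 0.42, and was 0.09 higher, with an adjusted p of 0.733, after scaling.

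Inside Fcer1g at +2.3 kb the change was larger. H3K27ac was 508 and 262 tags basally and 140 and 100.4 after IL-4 in C57, and 316 and 346 against 213 and 143 in SPRET, with the groups apart in all 5 strains. It fell by 1.19 (SE 0.20, adjusted p = 6.09e-05 by limma) and Pol II by 0.76 (SE 0.14, adjusted p = 9.24e-05). Regions nearest other genes also fell in H3K27ac, by 1.15 near Apoa2 at +7.9 kb, by 1.36 at the start of Pcp4l1 at +38.1 kb, by 1.20 in intron 1 of Pcp4l1 at +50.0 kb and by 1.20 near Ppox at -49.1 kb. In 6 of the 34 regions, all assigned to Fcer1g, H3K27ac of every IL-4 library was below that of every basal library in all 5 strains, which held for 8.43% of all regions.

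The 2 methylation marks need the shift of their tables beside them. H3K4me2 fell at 29 of 34 regions and rose at 1, the +3.4 kb region of Fcgr2b, where 76.2% of all regions were called (1.85% as higher and 74.4% as lower) and the median difference over all regions was -0.53. After scaling, 3 rose and none of the 34 fell, and 7.31% of all regions were called. H3K4me3 rose at 2 regions, both of Fcgr2b, and fell at 8, where 22.9% of all regions were called (5.27% as higher and 17.6% as lower) and the median over all was -0.10. After scaling 2 rose and 4 fell, and 7.68% of all were called. Tags summed over all regions of a strain's table, as a percentage of the library, went down after IL-4 in H3K27ac. The mean went from 62.5% to 40.7% in C57 and from 49.7% to 45.7% in SPRET. Neighbouring windows can overlap, so some tags were counted more than once. The part of this drop in the differences was not tested. ChIP-seq of a culture averages its cells, so fewer cells that carry a mark and less of the mark in each cell cannot be told apart.

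Whether the response differed between strains was tested by the strain-by-IL-4 term. None of the 34 regions passed it by limma in H3K27ac or in Pol II, and neither did any of the 29462 regions (0.0%). The unadjusted p was under 0.05 at 368 regions in H3K27ac and 520 in Pol II. Both counts are below the share of 0.05 that chance alone would give, so the term without a block was conservative here. No region of the 34 passed with edgeR or DESeq2 on the recovered reads, which called 0 and 16 of all regions in H3K27ac and 0 and 4 in Pol II. With the replicate number as a block, 549 regions passed in H3K27ac, 1 of them among the 34, and 9 in Pol II. A difference in response between SPRET and the other strains is therefore not shown by this test at these replicate numbers.

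Within single strains, with 2 libraries of H3K27ac in each condition, limma called 6 of the 277 strain and region pairs, 5 of which were Fcgr2b regions that rose (0.729% of all pairs were called). With the replicate block 89 of the 277 were called, and 17.4% of all pairs. In Pol II 16 pairs were called, of which 13 were Fcgr2b regions that rose, where 0.723% of all pairs were called; the block gave 41, and 5.07% of all. In H3K4me2 1 pair was called, at Fcgr1 in C57 (0.159% of all), and 26 with the block (6.04% of all). In H3K4me3 none was called (0.0115% of all), and 35 with the block (7.77% of all). A fold rule, a 2.5-fold difference of means with at least 16 tags in the higher condition (8 for Pol II), was applied with no test, to each mark on its own and to every region, promoters included. It is looser than the study's definition of changed enhancers, which takes intergenic or intronic sites where Pol II and H3K27ac both pass it. It took 23 Fcgr2b pairs in H3K27ac and 33 in Pol II, all of which rose. It took 8 Fcgr1, 15 Fcer1g and 7 Fcgr4 pairs that fell in H3K27ac and none of these that rose. In Pol II it took 6 Fcgr1 and 4 Fcer1g pairs that fell, and 4 Fcgr3 pairs and 1 Fcgr4 pair that rose, the last against the direction of H3K27ac at that gene. Over all regions the rule took 3.08% as higher and 4.5% as lower in H3K27ac, and 2.72% and 1.14% in Pol II.

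The C57 time course asked how soon the loci changed, with basal and 24-hour libraries that are the same as in the strain comparison. In H3K27ac 15 of the 71 regions differed from basal at 1 or more times by limma, where 12.4% of all regions did. At 1 hour 2 rose and 9 fell, where 1.37% of all regions were called higher and 8.36% lower. At 6 hours 5 rose and 3 fell (2.67% and 2.46% of all), and at 24 hours 1 rose and none fell (1.13% and 0.327%). The median over all regions was -0.63 at 1 hour, -0.14 at 6 hours and -0.22 at 24 hours, and after scaling 8 rose and 2 fell at 1 hour (2.02% and 0.821% of all). Tags summed over all regions were 69.7% and 63.8% of the library in the basal libraries and 44.0% and 20.5% at 1 hour. With 2 libraries at each time, leaving out 1 library moved the 15 to between 2 and 35, so single calls below are tied to this set of libraries.

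At the Fcgr1 start the time-course H3K27ac was 680 and 642 tags basally, 88.1 and 111 at 1 hour, 80.9 and 188 at 6 hours, and 154 and 163 at 24 hours. The fall was 2.73 at 1 hour (SE 0.57, adjusted p = 0.0143) and 2.41 at 6 hours (SE 0.57, adjusted p = 0.0206) in limma; the difference at 24 hours was -2.05 (SE 0.57, adjusted p = 0.0775). Upstream of Fcgr1 at -8.9 kb it was 187 and 170 tags basally, 11.6 and 13.8 at 1 hour, 31.6 and 74.9 at 6 hours, and 81.5 and 64.3 at 24 hours. The 1-hour libraries were the lowest there, with a fall of 3.71 (SE 0.56, adjusted p = 0.00538). Scaled values of these Fcgr1 falls are not given here, so how much of them the table-wide drop at 1 hour makes up is not shown. The Fcgr4 start is represented in the time course by a region other than the matched one of the strain comparison. H3K27ac at this Fcgr4 region was 391 and 275 tags basally, 67.3 and 57.8 at 1 hour, 98.6 and 153 at 6 hours, and 113 and 90.6 at 24 hours. It fell by 2.38 at 1 hour (SE 0.54, adjusted p = 0.0187), and by 1.57 with an adjusted p of 0.0544 after scaling. At the Fcer1g start no time passed the test, with a difference of -1.74 at 1 hour (SE 0.58, adjusted p = 0.0605).

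Fcgr2b rose as early. At +3.3 kb its H3K27ac was 31.2 and 21.4 tags basally, 366 and 71.3 at 1 hour, 298 and 186 at 6 hours, and 209 and 68.9 at 24 hours. The rise was 2.60 at 1 hour (SE 0.71, adjusted p = 0.0322) and 3.14 at 6 hours (SE 0.71, adjusted p = 0.0168) in limma. At +13.2 kb it was 6.11 and 15.7 tags basally, 80.4 and 14.1 at 1 hour, 87.0 and 114 at 6 hours, and 91.7 and 107 at 24 hours. The 1-hour libraries disagreed there and 1 of them lay within the basal range. The rise was 3.21 at 6 hours (SE 0.69, adjusted p = 0.0129) and 3.20 at 24 hours (SE 0.69, adjusted p = 0.0258). Fcgr3 had 1 region that rose, at +18 kb, beyond the 3′ end of the gene, with 6.11 and 7.13 tags basally and 35.6 and 30.6 at 1 hour. It rose by 2.16 at 1 hour (SE 0.55, adjusted p = 0.0261) and by 2.13 at 6 hours (SE 0.55, adjusted p = 0.0319).

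Pol II over the same times passed the test at 5 of the 71 regions, where 0.906% of all regions did. At the +3.3 kb region of Fcgr2b it was 54.9, 32.1, 9.65 and 28.4 tags basally, 413 in the single 1-hour library, 362 and 216 at 6 hours, and 272, 318 and 51.3 at 24 hours. The rise was 3.35 at 6 hours (SE 0.66, adjusted p = 0.0278) and 2.59 at 24 hours (SE 0.58, adjusted p = 0.0464) in limma. The Fcgr2b regions at +8.8 and -8.8 kb rose at both of these times and that at +14 kb at 6 hours. The fifth, inside Fcgr1 at +3.5 kb, held 46.8, 364, 212 and 181 tags basally and 18.6 and 29.3 at 6 hours, with a fall of 2.73 (SE 0.59, adjusted p = 0.0463). Without basal library 3 or 4 none of the 71 was called, and without basal library 1 there were 14.

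**Figure D3:**
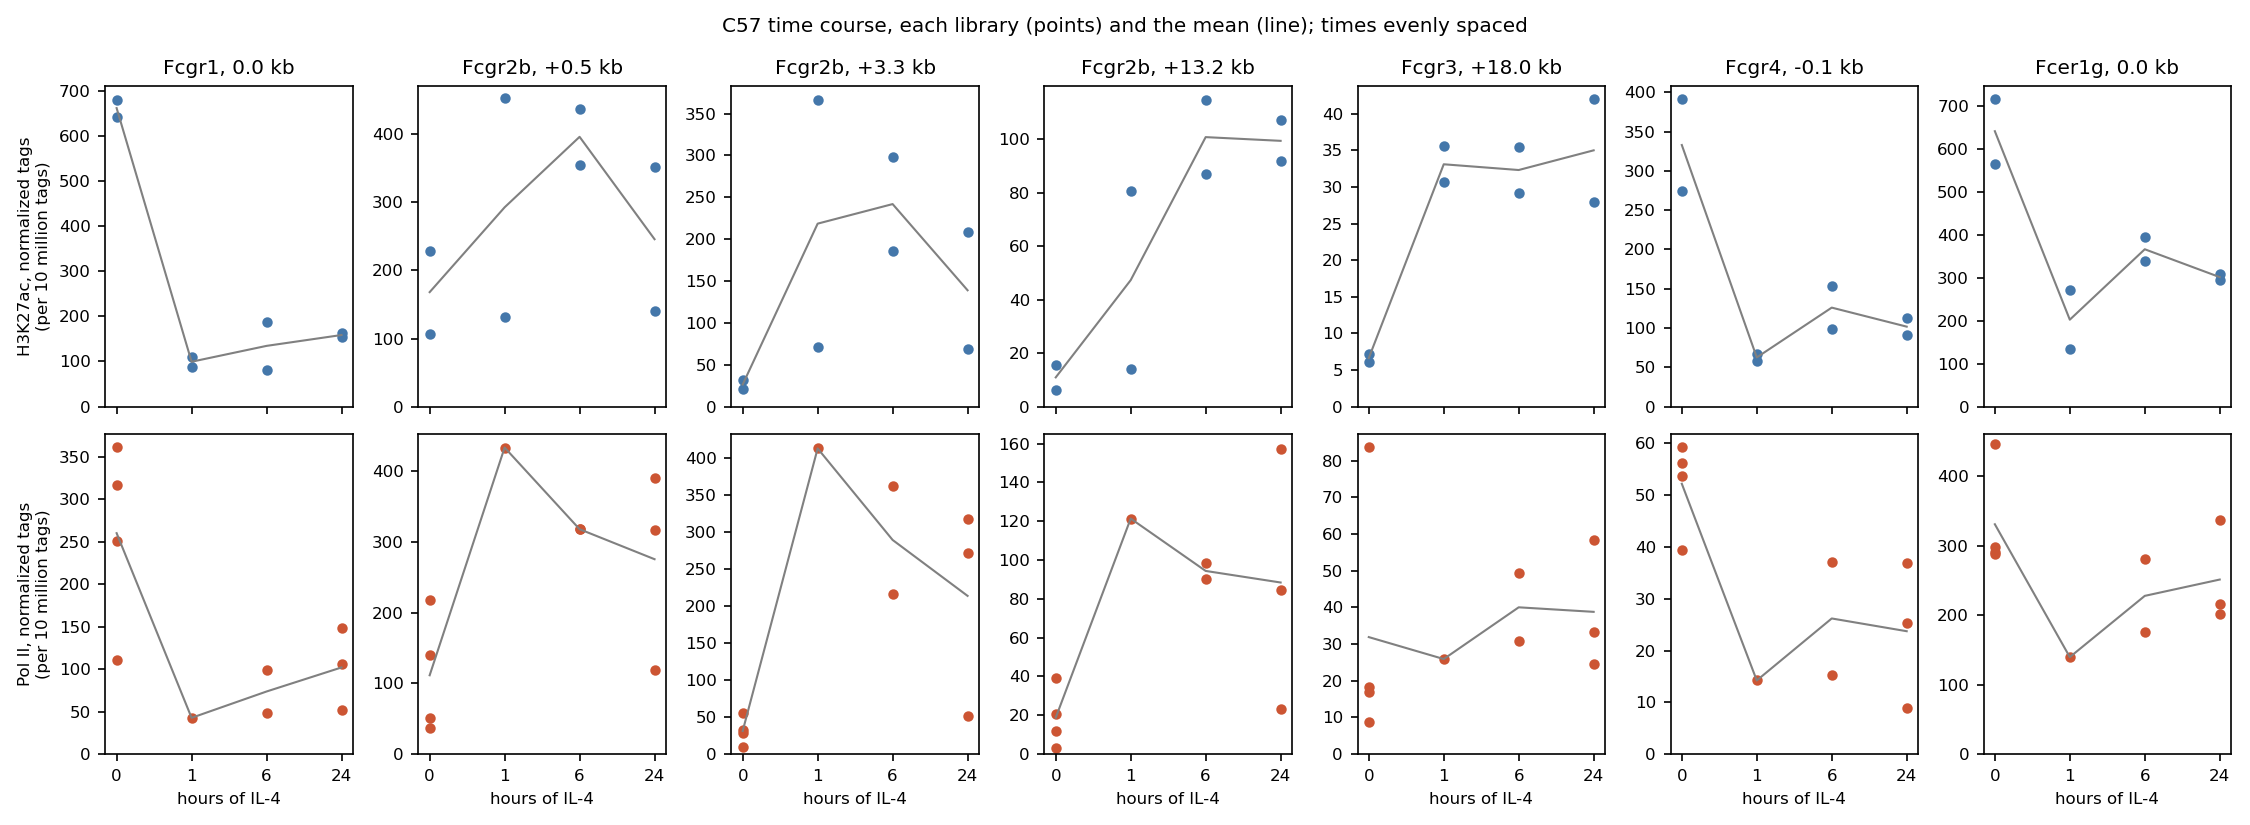
Tags per 1e7 tags in each C57 library before and 1, 6 and 24 hours after IL-4 for H3K27ac (upper row) and Pol II (lower row) at 7 regions of the 5 genes, on axes that start at 0; points are libraries, lines join the means and the times are evenly spaced. By its mean, H3K27ac at the Fcgr1 start is lowest at 1 hour and that at the +3.3 kb region of Fcgr2b is highest at 6 hours. At both regions the libraries of 1 and 6 hours overlap.

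EGR2 binding, also in C57, was counted at 32 sites of the 5 genes, 9 of Fcgr2b, 10 of Fcgr3, 9 of Fcer1g, 2 of Fcgr4 and 2 in the Fcgr1 window, the last near Hist2h4 and Hist2h2aa1. No site passed the limma test at any time, as for all 30675 sites (0.0%). Of these, 1085, 1169 and 1038 had an unadjusted p under 0.05 at 1, 6 and 24 hours, each below the share of 0.05 that chance alone would give. On the recovered reads edgeR called 0 of the 32 and 2 of all sites at 6 hours, and DESeq2 0 of the 32 and between 28 and 95 of all. At the -10.6 kb site of Fcgr2b EGR2 was 10.8 and 20.1 tags basally, 13.6 and 46.3 at 1 hour, 1.75 and 71.3 at 6 hours, and 34.6 and 57.6 at 24 hours. At +3.40 kb it was 15.9 and 9.40 basally and 32.3 and 28.8 at 24 hours, and at +8.8 kb 39.3 and 37.6 against 94.7 and 103. Both 24-hour libraries exceeded both basal ones at these 3 sites, but this was not particular to Fcgr2b. Sites entered this count through a peak called at any time in the same libraries. Those at -10.6 and +3.40 kb entered only through the 24-hour peaks, as did the Fcgr3 site at +11.4 kb. A higher 24-hour value at such sites was therefore partly built in. The same held at further sites of the 5 genes, among them +2.3 kb of Fcer1g. How many of the 32 sites, or of all sites, did so was not counted. At +11.4 kb of Fcgr3 the values were 11.2 and 9.40 tags basally and 30.5 and 17.3 at 24 hours. At -20.5 kb of Fcgr4 the values were 40.3 and 28.2 against 66.4 and 52.8. The median over all sites was 0.66 higher at 24 hours, so part of these differences is shared by the table. The largest EGR2 value of the 32 was at +11.7 kb of Fcer1g, at the start of Tomm40l, with 264 and 377 tags basally and 461 and 257 at 24 hours.

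Factor peaks show which sites the macrophages had bound before IL-4 and which were called after it. The lists hold 1 set of peaks for each strain and condition, made by the authors from replicates by the irreproducible discovery rate, so they have no replicate error here, and their sizes differ. C/EBPb lists held 13722 to 32353 peaks basally and 29217 to 45552 after IL-4, PPARg lists 6524 to 19684 and 18487 to 46415, STAT6 lists 11486 to 30589 and 16432 to 39537, EGR2 lists 6201 to 28842 and 14919 to 39458, and PU.1 lists 84558 to 101317 and 73028 to 99217. Over the 5 strains the peaks within 50 kb of the 5 genes went from 148 to 210 for C/EBPb, from 74 to 170 for PPARg, from 82 to 122 for EGR2, from 159 to 173 for STAT6 and from 370 to 369 for PU.1. The whole lists changed in size as well. In C57 the C/EBPb list went from 18043 to 37499 peaks, with 28 and 50 of them at the 5 genes. For PPARg the list went from 7627 to 39088 (12 and 48) and for EGR2 from 8437 to 29407 (9 and 30). For STAT6 it went from 30589 to 39537 (41 and 41) and for PU.1 from 85916 to 90308 (84 and 88). These counts are thus not read as a change particular to the 5 genes.

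At several Fcgr2b sites peaks were called in more strains after IL-4. How many sites over the whole lists did so was not counted. At -10.6 kb a PU.1 peak was called in 5 of 5 strains in both conditions, while C/EBPb peaks went from 1 to 5 strains, STAT6 peaks from 2 to 5, PPARg peaks from 0 to 3 and EGR2 peaks from 0 to 1. At +3.40 kb the C/EBPb peak went from 1 to 4 strains, STAT6 from 2 to 5, PPARg from 1 to 4 and EGR2 from 0 to 1. At +14 kb C/EBPb went from 1 to 5 strains, STAT6 from 2 to 3, PPARg from 0 to 3 and EGR2 from 2 to 4. At +8.8 kb, by contrast, C/EBPb and STAT6 were called in all 5 strains in both conditions, and PPARg went from 2 to 5 and EGR2 from 3 to 5. H3K27ac rose in the regions at -10.4, +3.4 and +8.8 kb, and the sequences given above are those of the -10.6, +3.40 and +13.9 kb sites.

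At the start of Fcgr1 PU.1, C/EBPb and STAT6 peaks were called in all 5 strains in both conditions and PPARg in 3, and no EGR2 peak was called in either, although H3K27ac fell there. At the Fcgr4 start (the site at -0.015 kb) STAT6 went from 5 strains to 1. At -12.4 kb of Fcgr4, by contrast, PPARg went from 0 to 4 and C/EBPb from 2 to 4. At the RefSeq start of Fcgr3 PU.1, C/EBPb and STAT6 were called in all 5 strains before and after IL-4. At +18 kb of Fcgr3 a STAT6 peak went from 0 to 5 strains and was also called in C57 at 1 and 6 hours, and PU.1 went from 0 to 3. At the start of Fcer1g EGR2 peaks were called in all 5 strains in both conditions and STAT6 in 4 and 3, and at +2.3 kb PPARg went from 0 to 3.

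**Figure D4:**
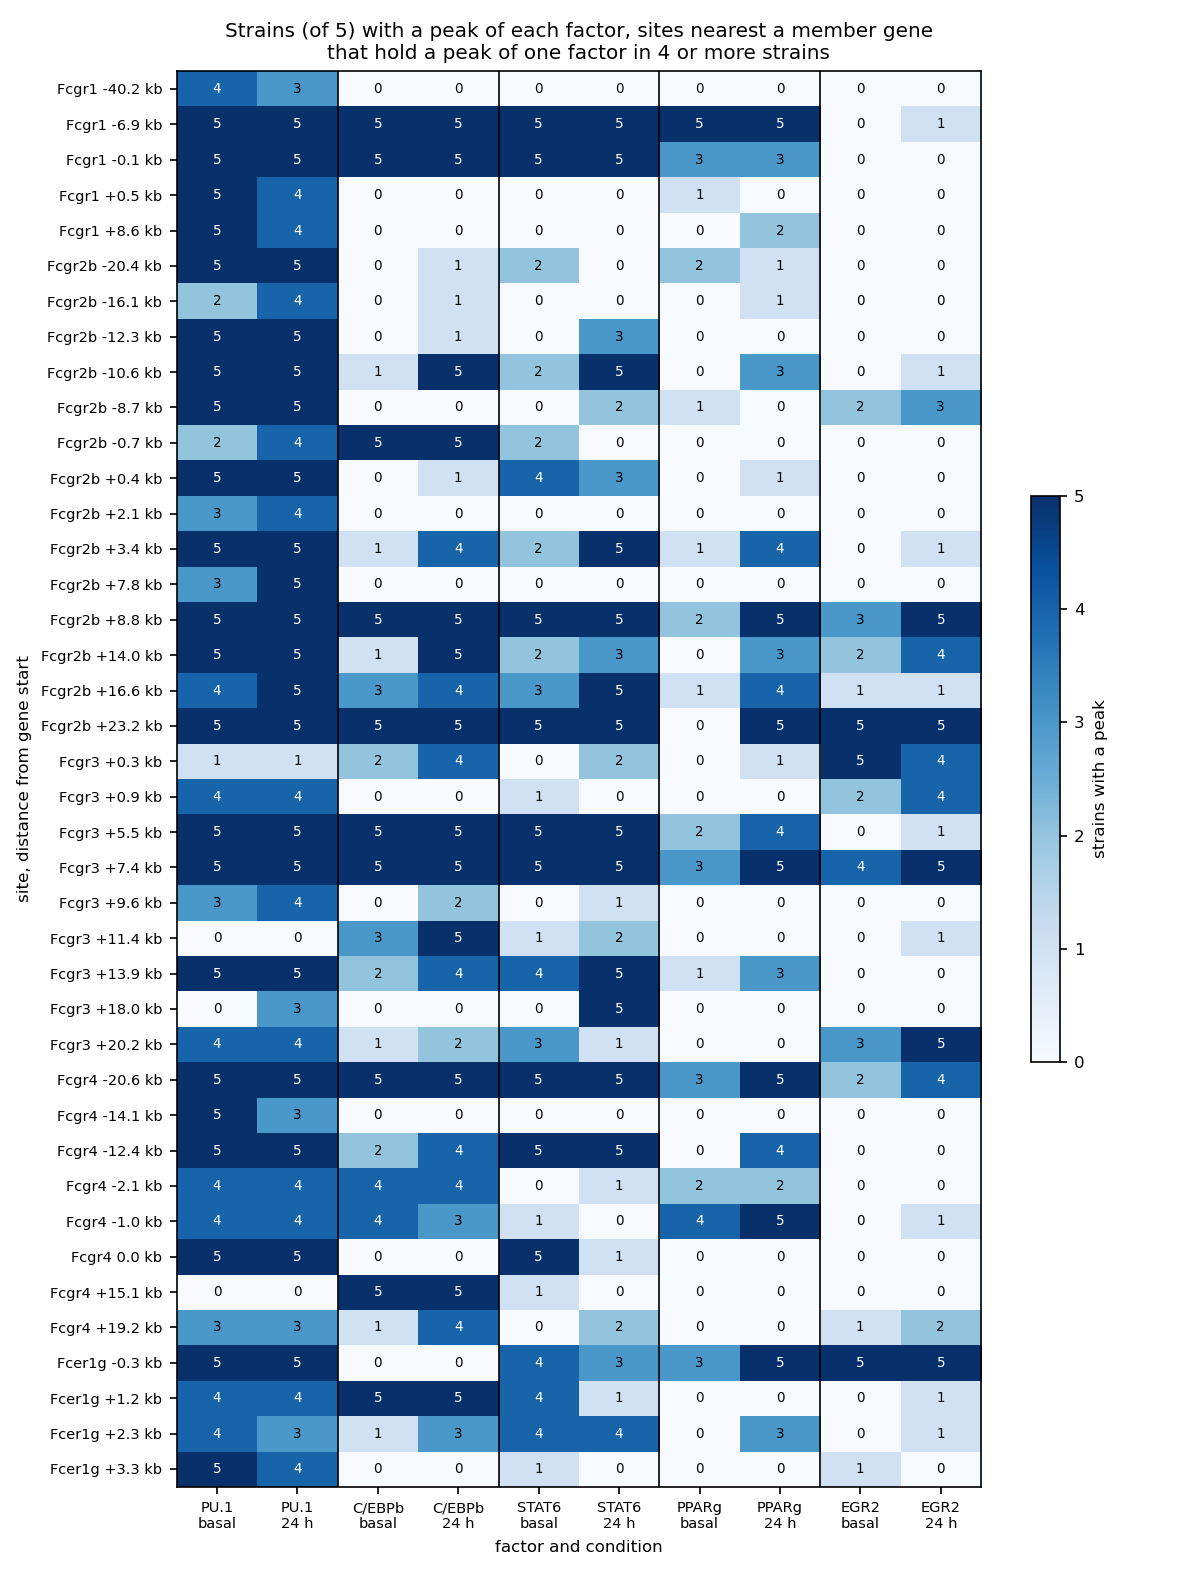
Number of the 5 strains in which a peak of each factor was called in basal BMDMs (left column of each pair) and after 24 hours of IL-4 (right column), for sites nearest 1 of the 5 genes with a peak of some factor in 4 or more strains (rows, named by gene and distance from its start in kb); darker cells mean more strains. The Fcgr2b rows at -10.6, +3.4 and +14 kb go from 1 strain to 4 or 5 in C/EBPb.

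The Egr2 genotypes asked whether the response at EGR2 sites needed Egr2 in myeloid cells. These tables hold windows around EGR2 sites that the authors chose as induced by 24 hours of IL-4, and 4 of the 4677 belong to the 5 genes: the Fcgr2b sites at -10.6, +3.40 and +13.9 kb and 1 site of Fcgr3 at +11.4 kb. No EGR2 ChIP of these genotypes was used here, so the loss of EGR2 in the LyzM-Cre cells was not checked. The study itself reports that Egr2 was efficiently deleted in them. In IL-4-treated cells, none of the 4 windows differed between genotypes by limma in H3K27ac, H3K4me2, PU.1, C/EBPb, STAT6 or PPARg. Of all windows, 24.7% differed in H3K27ac, 9.09% in H3K4me2, 9.45% in PU.1, 8.25% in C/EBPb, 0.0214% in STAT6 and 0.0% in PPARg. The unadjusted p was under 0.05 in 1730, 989, 1152 and 1295 of the 4677 for the first 4 of these targets. The genotype-by-IL-4 term passed at none of the 4 windows, and over all windows at 0.0428% in H3K4me2 and 0.0% in the other targets. The median difference over all windows, LyzM-Cre Egr2 fl/fl minus Egr2 fl/fl, was -0.50 in H3K27ac, -0.16 in H3K4me2, -0.33 in PU.1, -1.14 in C/EBPb, -0.79 in STAT6 and -1.28 in PPARg.

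At the +3.40 kb site of Fcgr2b H3K27ac was 44.3 and 44.1 tags in basal Egr2 fl/fl libraries and 140 and 180 after IL-4, and 29.1 and 30.8 against 237 and 165 in LyzM-Cre Egr2 fl/fl. IL-4 libraries of both genotypes were well above their basal ones and overlapped each other. H3K27ac rose by 1.82 with IL-4 in Egr2 fl/fl cells (SE 0.24), and the genotypes differed by 0.32 after IL-4 (SE 0.24, adjusted p = 0.377 by limma). After scaling the site was 0.85 higher in the LyzM-Cre cells with an adjusted p of 0.022, as was its PU.1 by 0.55 (adjusted p = 0.024), where 22.2% and 8.27% of all windows were called. Single Pol II libraries held 18.4 tags basally and 128 after IL-4 in Egr2 fl/fl and 17.6 and 233 in LyzM-Cre Egr2 fl/fl, with no replicate.

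At the -10.6 kb site H3K27ac was 22.2 and 27.8 tags basally and 108 and 82.9 after IL-4 in Egr2 fl/fl, and 13 and 10.7 against 102 and 65.6 in LyzM-Cre Egr2 fl/fl. The genotypes differed by -0.21 after IL-4 (SE 0.30, adjusted p = 0.667), and by 0.33 after scaling, and the IL-4 libraries overlapped. STAT6 at this site was 13.4 and 7.18 tags basally and 36.1 and 34.5 after IL-4 in Egr2 fl/fl, a rise of 1.74 (SE 0.55, adjusted p = 0.038), where the median over all windows was 1.04, and 6.69 and 8.26 against 27.8 and 21.4 in LyzM-Cre cells. PPARg was 10.0 and 1.01 against 55.3 and 37.8 in Egr2 fl/fl and 9.58 and 0.0 against 22.2 and 16.8 in LyzM-Cre. Both IL-4 libraries of the LyzM-Cre cells were below those of Egr2 fl/fl in STAT6 and PPARg, but neither difference passed the test (-0.51, SE 0.55, adjusted p = 0.619, and -1.20, SE 1.37, adjusted p = 0.661). After scaling the rise in STAT6 was 0.61 with an adjusted p of 0.759, and the genotype difference was 0.23 in STAT6 and -0.21 in PPARg. PU.1 at this site was 85.7 and 93.3 tags after IL-4 in Egr2 fl/fl and 118 and 110 in LyzM-Cre cells, a difference of 0.35 (SE 0.17, adjusted p = 0.215) that was 0.60 with an adjusted p of 0.0407 after scaling.

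At +13.9 kb H3K27ac was 52.8 and 27.8 tags basally and 123 and 184 after IL-4 in Egr2 fl/fl, and 28.1 and 34.2 against 135 and 130 in LyzM-Cre, a difference between genotypes of -0.18 (SE 0.30, adjusted p = 0.706), or 0.35 after scaling. At the +11.4 kb site of Fcgr3 it was 34.9 and 25.8 against 47.2 and 36 in Egr2 fl/fl and 29.1 and 23.5 against 29.1 and 18 in LyzM-Cre, where the IL-4 libraries of the 2 genotypes did not overlap. The difference was -0.82 (SE 0.33, adjusted p = 0.08 by limma and 0.034 with the replicate block), and -0.30 after scaling.

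**Figure D5:**
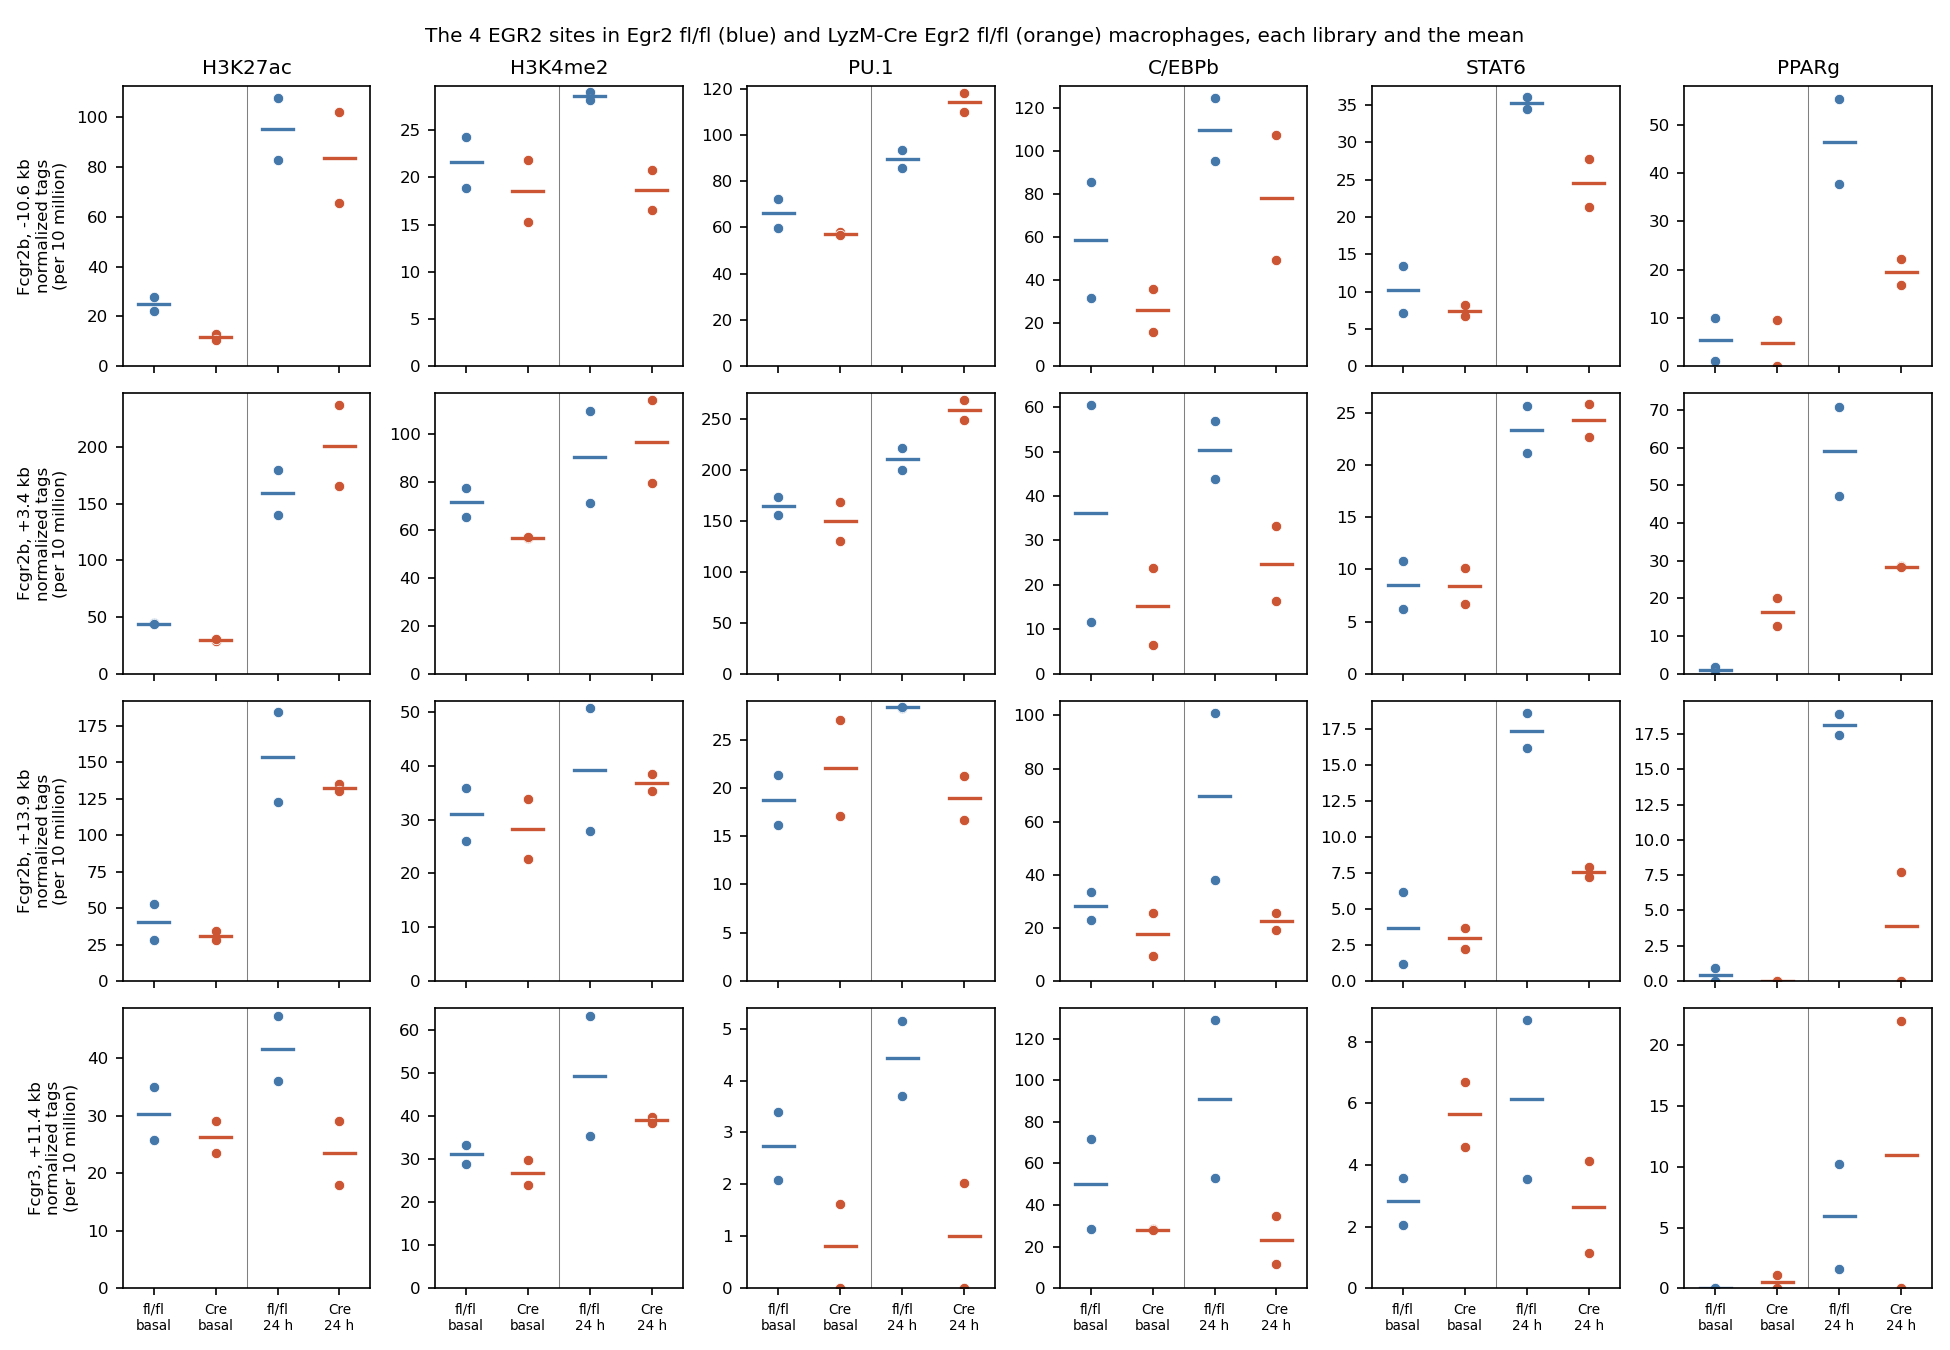
Tags per 1e7 tags in each library of Egr2 fl/fl and LyzM-Cre Egr2 fl/fl BMDMs, basal and after 24 hours of IL-4, at the 4 windows of the receptor genes (rows) for H3K27ac, H3K4me2, PU.1, C/EBPb, STAT6 and PPARg (columns); points are libraries and horizontal lines are means. In H3K27ac the IL-4 libraries of both genotypes stand above the basal ones at the 3 Fcgr2b windows.

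The labelled cell type was checked against marker genes at their starts. H3K27ac summed over 8 macrophage markers was 2798 to 4753 tags in basal libraries and 1513 to 3279 after IL-4, with a region at 7 or 8 of the 8. The sums over neutrophil markers were 21.4 to 465 basally and 42.7 to 348 after IL-4 (1 to 3 of 6 with a region), over B cell markers 55.9 to 151 and 31.4 to 109 (1 to 2 of 5), and over T and NK cell markers 0 to 175 and 0 to 118 (0 to 1 of 5). Fibroblast and mast cell markers summed to at most 9.70 and 5.25 tags. The part of these in the changes was not tested.

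The other genes of the receptor pathway were counted by their start regions in the same limma test. Of 4 measured other Fc receptor genes (10 listed), 1 rose and 3 fell in H3K27ac, with Fcrlb at 0.69 and Fcrl1 at -2.02. Of 10 measured kinases and adaptors that act behind the ITAM (12 listed), 5 fell and none rose, among them the Src family kinase Lyn at -1.0, the exchange factor Vav1 at -1.0 and the adaptor Tyrobp at -0.90. Both measured phosphatases of the inhibitory side (3 listed) fell, Inpp5d, which encodes SHIP-1, by 0.82 and Ptpn6 by 0.71. Of 8 measured phagocytosis and oxidase genes (10 listed) 4 fell and none rose. Over all regions 8.01% rose and 32.6% fell. After scaling, 1 other Fc receptor gene rose and 1 fell, 1 kinase or adaptor rose and 5 fell, 1 phosphatase fell, and 1 phagocytosis gene rose and 2 fell, where 15.9% of all regions rose and 15.5% fell.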

How the data were processed

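ChIP-seq of 267 samples in 138 groups was deposited. As the methods state, Bowtie2 placed the reads on a genome built for each strain, positions were moved to mm10, and the authors counted tags with HOMER. The deposited signal values are tags within 1 kb around region centres (300 bp in the genotype table of factors, the peak itself for EGR2 sites), which the authors had scaled so that each library counts 1e7 tags. Regions of the strain tables are sites of open chromatin that the authors called in basal cells, IL-4-treated cells or both. In C57 the Fcgr1 start was called in basal cells only. In SPRET the Fcgr2b regions at +3.3 and -10.5 kb were called after IL-4 only. The authors kept peaks reproducible between replicates and deposited 54 lists with a peak score, used here only to describe them. Of the 7268918 values checked, 100.0% were whole reads within 0.1 of a read once the scaling was undone.

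Groups came from the sample labels. The 12 input libraries and 4 Pol II columns that match no sample were not used. limma 3.58.1 (R 4.3.3, eBayes with trend) was fitted to log2(tags + 1) over every region of a table, without a filter, with a Benjamini-Hochberg adjusted p of 0.05 as threshold. Each strain had its own table of regions and its own genome for alignment, so strains were compared only through differences within each table. The limma fit on these scaled values stands in place of a count test as the main result, and edgeR 4.0.16 and DESeq2 1.42.0 were run on the recovered reads as alternatives, together with a pseudocount of 5, a filter on low values, median-ratio scaling, a replicate block, matching within 200 bp and leaving out each library. On the recovered reads edgeR called 16 of the 34 matched regions in H3K27ac. The scripts were tested on simulated data.

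Same-numbered basal and IL-4 libraries deviated together in all 5 strains. The correlation of their deviations was 0.507 to 0.729 in H3K27ac, 0.191 to 0.631 in Pol II, 0.211 to 0.470 in H3K4me2 and 0.515 to 0.732 in H3K4me3. The replicate number thus pairs them, from the data and the labels' numbers. The fit without the block stays the main result, and blocked values are given as counts and for the named calls that they change. No 2 libraries of the 99 replicate pairs held identical values, with a chi-square per region of 1.50 to 19.7. The study calls its libraries biological replicates. Where it does not say from which mice they came, p-values measure the spread between these libraries.

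The members, gene lists and tests were chosen with earlier results of these data known. The regions named were, for each gene, that nearest the start and the distal one with the highest C57 H3K27ac, those with the largest rise and fall, and the EGR2 sites. The Fcgr2b regions at +8.8 and -10.4 kb, the Fcer1g region at +2.3 kb and the pathway genes given as examples were chosen after their values were seen. Some genes that these rules name are not reported here.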

Additional observations from a re-analysis of the deposited data

Results flagged for a closer look

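In 4 basal C57 Pol II libraries, 1 library stood apart from the other 3 by Dixon's criterion at 3 of 11 regions checked, where chance flags about 1 group in 20. At the -1.0 kb region of Fcgr4 it held 17.2 tags against 33.8 to 36.1 in the others. At the -20.5 kb region of Fcgr4 it held 118 tags against 102 in each of the others. At the Fcer1g start 1 library held 445 tags against 285 to 298.

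At the -20.5 kb region of Fcgr4, the strains moved in opposite directions in H3K4me3. In 1 strain, SPRET, both IL-4 libraries (180 and 158 tags) were above both basal ones (155 and 119), while in 2 strains both were below: C57, with 56.2 and 52.3 against 90.3 and 84.4, and NOD, with 91.7 and 69.1 against 160 and 150. This difference between strains was not tested.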

How the results depend on the processing

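In the comparison over 5 strains, the counts of called regions in H3K27ac (20 of 34) and Pol II (13) stayed within 1.5 times under each alternative. H3K4me2 (30) gave 3 after median-ratio scaling and 2 by edgeR and by DESeq2, and H3K4me3 (10) gave 6 by each of these 3. These alternatives remove the shift shared by all regions. They also reversed 3 H3K4me2 differences: that at -6.9 kb of Fcgr1 to 0.020, 0.011 and 0.017 by scaling, edgeR and DESeq2, that at -1.0 kb of Fcgr4 to 0.065, 0.068 and 0.076, and that at the Fcer1g start to 0.092, 0.134 and 0.130.

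With the replicate block, which pairs same-numbered libraries, the comparison over 5 strains called 28 of the 34 regions in H3K27ac, of which 4 rose and 24 fell. It called 17 in Pol II (4 rose, 13 fell), 31 in H3K4me2 (1 rose, 30 fell) and 14 in H3K4me3 (4 rose, 10 fell). The blocked share over all regions is not given here for this comparison. The strain-by-IL-4 term in H3K27ac gave 1 in place of 0 regions with the block. The within-strain counts became 89 in H3K27ac (from 6), 41 in Pol II (16), 26 in H3K4me2 (1) and 35 in H3K4me3 (0), and the genotype count became 1 (0). The C57 time course, where not every pairing passed the check (lowest correlation 0.029 in H3K27ac), gave 33 in H3K27ac (15) and 14 in Pol II (5) with the block. Of the named values it took 5 past the threshold (H3K27ac at +0.5 kb of Fcgr2b, +5.4 kb of Fcgr3 and the +11.4 kb genotype site, H3K4me2 at +0.3 kb of Fcgr3 and H3K4me3 at -1.0 kb of Fcgr4), and it changed no other named call.

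By DESeq2 the within-strain counts were 23 in H3K27ac, 30 in Pol II, 0 in H3K4me2 and 6 in H3K4me3, and by edgeR 2 in H3K4me2 and 6 in H3K4me3. H3K4me3 within strains also gave 2 with a pseudocount of 5, 6 with the filter and 1 after scaling. Pol II in the time course gave 3 with the filter, 8 after scaling, 9 by edgeR and 15 by DESeq2. The genotype count was 3 after scaling, 3 by edgeR and 2 by DESeq2. A fold threshold of 2 took 84 pairs in H3K27ac, against 53. The cause was not tested.

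Leaving out 1 library at a time gave 20 to 23 regions across strains in H3K27ac, 11 to 14 in Pol II, 27 to 32 in H3K4me2 and 6 to 12 in H3K4me3 (6 without C57 library 1 or NOD library 2 of either condition), and 0 to 0 for both interactions with strain. Within strains it gave 2 to 15 in H3K27ac (15 and 10 without BALB IL-4 library 1 or 2, 2 without either PWK IL-4 library), 9 to 20 in Pol II (10 without PWK basal library 2, 9 without PWK IL-4 library 2), 0 to 42 in H3K4me2 and 0 to 1 in H3K4me3. H3K4me2 gave 42 without C57 IL-4 library 1, 32 without BALB IL-4 library 1, 20 without NOD basal library 1, 10 without SPRET basal library 1, 2 and 4 without SPRET IL-4 library 1 or 2, and 0 without another C57 library. H3K4me3 gave 1 without PWK basal library 1.

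In the time course it gave 2 to 35 in H3K27ac (35 without 1-hour library 1, 6 without basal library 1, and 2 without basal library 2 or either 6-hour library), 0 to 14 in Pol II and 0 to 2 for EGR2 sites (2 without 1-hour library 2). Pol II gave 14 without basal library 1, 2 without basal library 2 or either 6-hour library, 0 without basal library 3 or 4, 3 without 24-hour library 1 and 9 without 24-hour library 3. Both genotype tests gave 0 to 0, and the fold rule 49 to 58 pairs in H3K27ac and 41 to 51 in Pol II.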

Other observations

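Over the 10 means of strain and condition, the H3K27ac level at 8039 gene starts was compared with that at each of the 5 receptor genes, as a description in which the points share libraries and tables. The starts most like Fcgr1 included Lins1 (Pearson's r 0.988) and Ghitm (0.959). Those most like Fcgr2b were Casp6 (0.907), a caspase gene, Ctrc (0.885) and Cd74 (0.879), the invariant chain of MHC class II. For Fcgr3 they were Zfp775 (0.864), Ptp4a2 (0.754) and D630045J12Rik (0.747), for Fcgr4 Hook2 (0.977), Esyt1 (0.975) and Trim25 (0.974), and for Fcer1g Rab4b (0.986), 9130023H24Rik (0.986) and Sh3bp1 (0.985).

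In Pol II, of the other pathway genes measured, 1 other Fc receptor gene rose and 2 fell, 1 kinase or adaptor rose and 5 fell, no phosphatase passed the test, and 2 phagocytosis genes rose, where 7.77% of all regions rose and 8.46% fell. After scaling 1 phagocytosis gene also fell. The ubiquitin ligase gene Cbl was 0.63 higher and the oxidase gene Ncf4 0.46 higher after IL-4, while Lyn was at -0.43, Vav1 at -0.52 and Tyrobp at -0.51.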
